A study of Mus musculus with 23 samples.

Results

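The heat shock protein and DnaJ families make up most of the folding machinery of the mouse cell. They were taken here as the protein-coding genes whose GENCODE symbol begins with Hspa, Hspb, Hspd, Hspe or Hsph and a number, with Hsp90, or with Dnaja, Dnajb or Dnajc and a number. Of the 54393 genes in the deposited tables, 72 met this rule, and 14 processed pseudogenes with matching names did not. By the place where their protein is known to work, 38 were assigned to the cytosol and nucleus, 14 to the endoplasmic reticulum (ER) and 9 to the mitochondrion, and 11 had another or no assigned place. The low-count filter kept 67 of the 72. Dnajb8, Dnajc5b, Dnajc5g, Hspb3 and Hspb9 did not pass it, which left 35 tested genes of the cytosol and nucleus, all 14 of the ER, all 9 of the mitochondrion and 9 others.

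Tubules were dissected by hand from mouse kidney and comprised connecting tubule and cortical collecting duct, the segments in which aldosterone acts through the mineralocorticoid receptor encoded by Nr3c2. All mice, controls included, had the genotype Pax8-rtTA, TRE-LC-1, MRflox/flox, in which Pax8 sequences drive a doxycycline-dependent Cre along the renal tubule and not in these segments alone. Doxycycline (2 mg/ml, in 5% sucrose) was given to knockout mice over 2 weeks, and a rescue diet over the 2 weeks of washout that came next. Controls drank 5% sucrose without doxycycline, and the labels do not say whether they had the rescue diet, so the effects of receptor loss and of doxycycline cannot be told apart. After 4 days on a diet the groups were knockout on normal potassium (KO-NK, n = 6), knockout on low potassium (KO-LK, n = 6), high-potassium control (CT-HK, n = 6) and normal-potassium control (CT-NK, n = 5). Nothing in the labels ties the libraries to separate animals, and p-values therefore measure the spread between these libraries only.

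Libraries held 16158408 to 34154475 estimated counts. Nr3c2 averaged 58.8 ± 10.4 CPM in KO-NK and 54.3 ± 15.6 CPM in KO-LK, against 108 ± 25.8 CPM in CT-HK and 108 ± 33.2 CPM in CT-NK (counts scaled to a common library size, with TMM factors, mean ± SD), and its log2 fold change in KO against CT was -0.94 (SE 0.15, adjusted p = 0.000155). All 14 markers of principal cells and connecting tubule were detected, with summed levels of 6246 to 16069 CPM in KO-NK, 8835 to 12925 CPM in KO-LK, 11588 to 22282 CPM in CT-HK and 9121 to 17338 CPM in CT-NK. The 15 proximal tubule markers belong to a segment other than those dissected. They summed to 1076 to 4378 CPM in KO-NK and 382 to 1172 CPM in KO-LK. In CT-HK they summed to 194 to 28171 CPM, and in CT-NK to 439 to 16765 CPM. The highest sums belonged to CT-HK replicate 6 and CT-NK replicate 5. KO-NK replicate 3 and CT-NK replicate 2 stood apart in another way: they held the lowest CPM of 24 and 19 of the 67 tested chaperone genes. Immediate early genes respond within minutes to many stimuli. In KO against CT, 18 of the 19 tested were higher at an adjusted p under 0.05 (edgeR), against 4.67% of all tested genes.

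Hsp70 proteins (Hspa genes) bind exposed hydrophobic stretches of unfolded proteins in a cycle of ATP hydrolysis, and DnaJ proteins deliver the client and start that hydrolysis. Hsp90 completes the folding of signalling proteins, and in the cytosol it holds unliganded steroid receptors, the mineralocorticoid receptor among them, in a form that can bind hormone. Each compartment has its own set: Hspa5 and Hsp90b1 in the ER, and Hspa9 with the chaperonin of Hspd1 and Hspe1 in the mitochondrion. Cytosolic heat damage acts through heat shock factors on heat shock elements, repeats of GAA units in alternating orientation, and ER stress through Atf6 on the ER stress element.

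The sequences below are shown because they mark the control regions known for these groups. Hspd1 and Hspe1 lie head to head on chromosome 1. A RefSeq start of Hspd1 at 55088243 lies past the Hspe1 start at 55088148. The other Hspd1 start, at 55087932, lies 216 bases from that of Hspe1. Between the starts lie overlapping matches to the 3-unit heat shock element (GAA, TTC and GAA, or TTC, GAA and TTC, with 2 free bases between units), 89 to 72 bases before the Hspe1 start at chr1:55088053-55088082 on the plus strand. The annotation also places an exon of a longer Hspd1 transcript there. Hspa1a (chr17:34972213-34972300, minus strand) and Hspa1b (chr17:34959295-34959382, minus strand) share 296 of 300 promoter bases, 98.7%, with a 2-unit match (GAANNTTC) 104 to 97 bases before each start. Hspb1 (chr5:135887762-135887869, plus strand) has 2 such matches. Hspa5 (chr2:34772020-34772048, plus strand) and Dnajc3 (chr14:118937787-118937885, plus strand) carry the ER stress element, CCAAT and CCACG with 9 free bases between them. The annotation also places an exon at the Hspa5 match. Capitals mark the matches. All are from RefSeq on GRCm38.p6, written 5′ to 3′ on the gene's strand.
Hspe1: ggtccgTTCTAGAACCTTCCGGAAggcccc
Hspa1a: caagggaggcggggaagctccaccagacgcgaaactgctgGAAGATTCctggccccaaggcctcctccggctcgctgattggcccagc
Hspa1b: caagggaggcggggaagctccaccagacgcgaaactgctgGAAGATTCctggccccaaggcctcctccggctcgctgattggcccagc
Hspb1: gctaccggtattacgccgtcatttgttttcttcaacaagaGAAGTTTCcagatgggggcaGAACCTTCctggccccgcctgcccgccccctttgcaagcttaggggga
Hspa5: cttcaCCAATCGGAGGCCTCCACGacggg
Dnajc3: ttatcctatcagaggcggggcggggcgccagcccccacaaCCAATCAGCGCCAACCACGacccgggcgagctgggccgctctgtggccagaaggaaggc

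Promoters from 250 bases before to 50 bases after the start were found for 58 of the 72 genes. On both strands, the 3-unit heat shock element matched 4 of them (Dnajb6, Hspd1, Hspe1 and Hsph1; 6.90%), against 0.662% of the 27025 genes in the table. Both 2-unit forms, GAANNTTC and TTCNNGAA, lie within the 3-unit form. GAANNTTC matched 14 of the 58 genes (24.1%), against 9.04% of all genes, and TTCNNGAA matched 6 (10.3%), against 9.60%. Both counts include the 4 genes with the 3-unit form. The window of the Hspd1 start nearer the match also covers the Hspe1 match, so both genes count the same stretch. Hspa1a and Hspa1b, whose promoters are near-identical, each count for GAANNTTC. The ER stress element matched Hspa5, Hsp90b1 and Dnajc3 (5.17%), against 0.137% of all genes. A match describes the letters in this window and was not tested as a site.

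Levels were compared between genes in TPM, which divide by transcript length. Hspa8, the constitutive cytosolic Hsp70, averaged 676 ± 100.2 TPM in KO-NK, 687 ± 136 TPM in KO-LK, 606 ± 135 TPM in CT-HK and 679 ± 297 TPM in CT-NK. Hsp90ab1, the constitutive cytosolic Hsp90, stood at a similar height with 699 ± 94.7, 632 ± 97.0, 527 ± 127 and 613 ± 243 TPM in the same order of groups. These genes, which keep the cytosol's folding capacity, were the most abundant of the family per transcript length. Of the mitochondrial genes Hspe1 was the most abundant, with 133 ± 16.3 TPM in KO-NK, 133 ± 16.0 TPM in KO-LK, 154 ± 28.1 TPM in CT-HK and 164 ± 36.8 TPM in CT-NK.

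Pooled knockout was then set against pooled control, the contrast with the most libraries (12 against 11). The knockout pool held normal and low potassium diets, and the control pool held high and normal potassium diets. Potassium intake therefore differs between the pools and cannot be told apart from genotype within this contrast. In KO against CT, 8 of the 67 tested genes were lower and none was higher at an adjusted p under 0.05. Over all 25829 tested genes 10.5% passed in either direction, 5.86% lower and 4.67% higher; 20 of the 67 had an unadjusted p under 0.05, against 21.1% of all genes. None of the 67 had KO libraries wholly above or below the CT libraries, as 0.67% of all genes did. The 8 were 7 of the 9 mitochondrial genes (Hspe1, Hspd1, Hspa9, Dnajc15, Dnajc19, Dnajc28 and Dnajc30) and the cytosolic Dnajc12. Of the 14 ER genes edgeR called 0, with 4 at an unadjusted p under 0.05. DESeq2 called 1 of them higher and 2 lower, where it called 18.3% of all tested genes, 7.15% higher. The median log2 fold change was -0.50 for the mitochondrion, 0.00 for the ER and -0.09 for the cytosol and nucleus, against 0.09 over all tested genes. All 9 mitochondrial genes had a negative fold change, as did 7 of 14 ER genes and 22 of 35 of the cytosol and nucleus. These bulk values cannot tell fewer cells of a type from less RNA per cell.

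**Figure D1:**
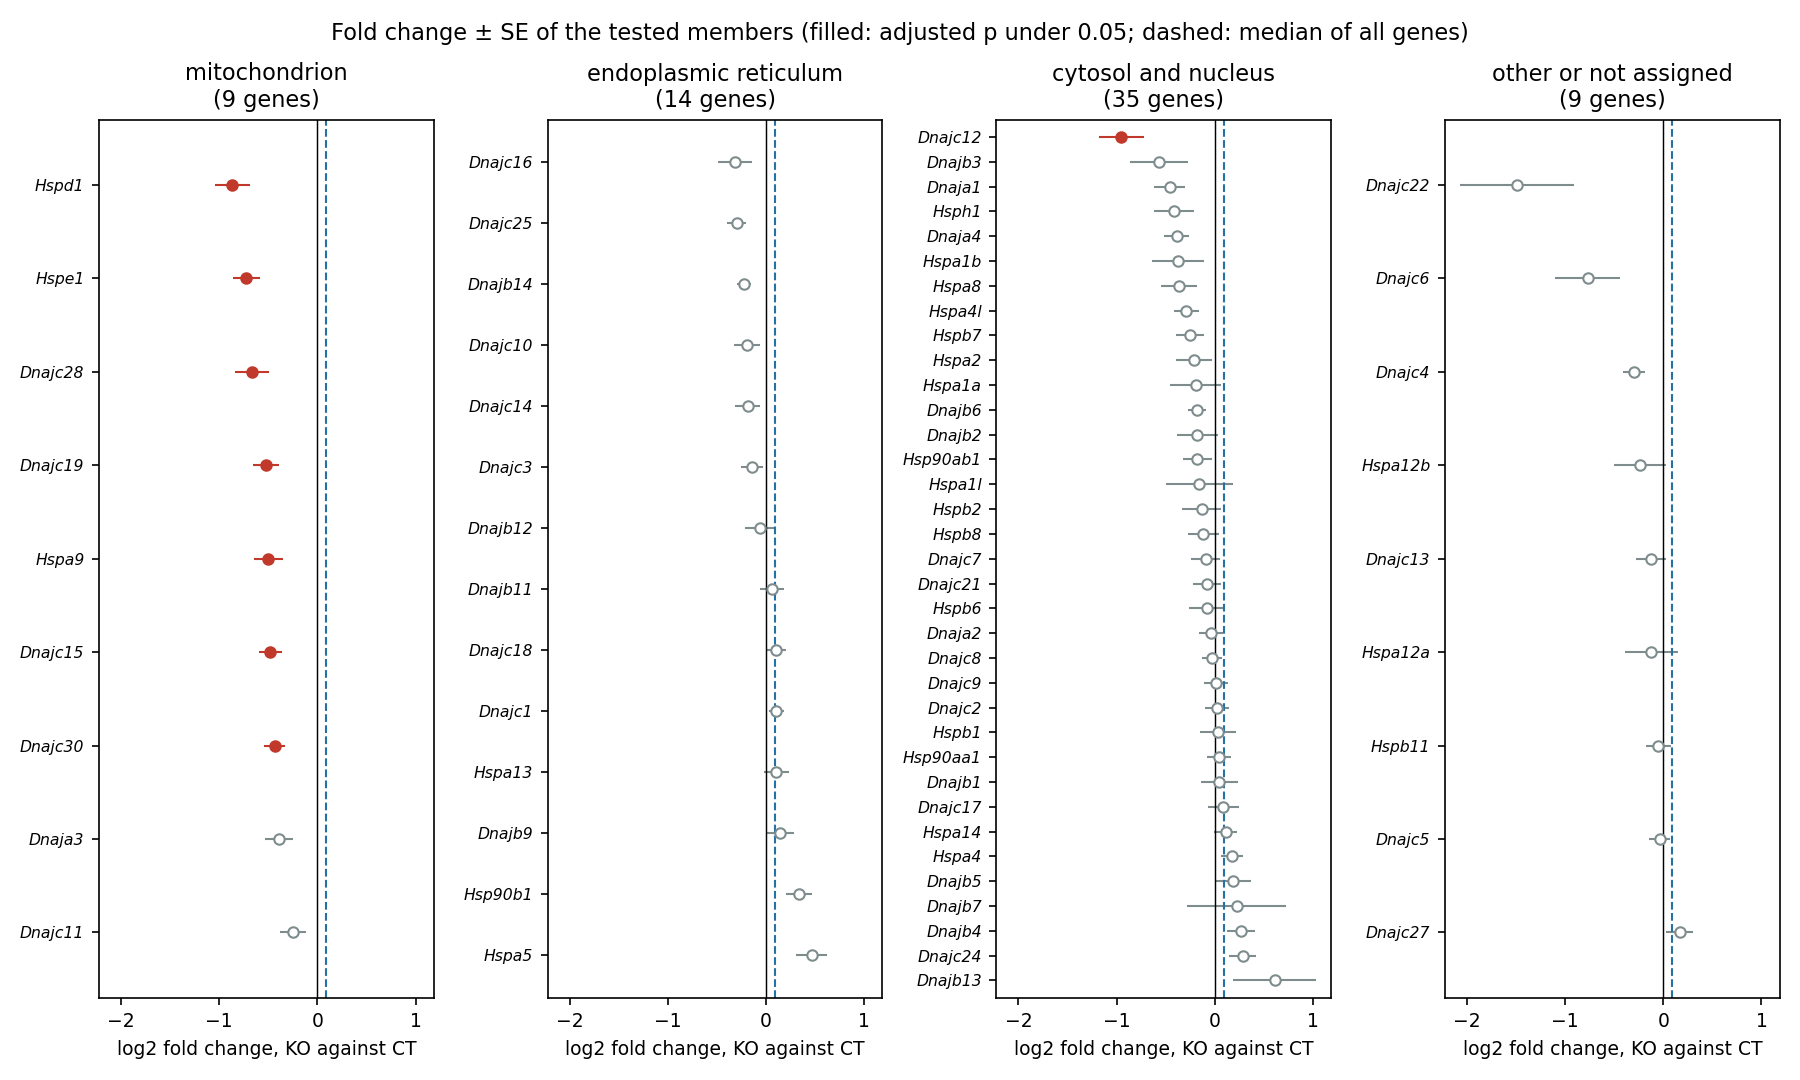
Log2 fold change ± SE of each tested heat shock and DnaJ gene in KO against CT, from edgeR on TMM-scaled counts, in 4 panels by compartment; filled points have an adjusted p under 0.05, the solid line marks no change and the dashed line the median of all tested genes (0.09). The 7 filled mitochondrial points lie between -0.87 and -0.43, and the ER points lie on either side of 0.

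The mitochondrial chaperonin was described first. Hspd1 encodes the barrel-forming Hsp60 subunit and Hspe1 its lid, Hsp10. Hspd1 lay between 66.5 and 154 CPM in KO-NK (median 136) and between 111 and 160.4 CPM in KO-LK (median 120.4). In CT-HK it lay between 158 and 373 CPM (median 258), and the CT-NK libraries held 262, 90.4, 173, 233 and 291 CPM. KO-NK and CT-HK did not overlap, while CT-NK replicate 2 lay within the range of the knockouts. For Hspd1 the log2 fold change in KO against CT was -0.87 (SE 0.18, adjusted p = 0.00185). CT-HK replicate 6 and CT-NK replicate 5, the libraries richest in proximal tubule markers, held its highest level in their groups. Without those libraries the log2 fold change was -0.72 (adjusted p = 0.011).

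Hspe1 lay between 45.9 and 92.2 CPM in KO-NK (median 75.7) and between 54.2 and 98.6 CPM in KO-LK (median 71.3). In CT-HK it lay between 75.5 and 173 CPM (median 132), and the CT-NK libraries held 106, 85.8, 125, 135 and 121 CPM. The groups overlapped at the lower end of the controls. Hspe1 fell by 0.72 in KO against CT (log2 scale, SE 0.14, adjusted p = 0.000841). Hspe1 and Hspd1 overlap on opposite strands over the start of Hspe1, and nothing in the sources says that the counting used strand, so reads there cannot be assigned to either. Their processed pseudogenes held 0.243% and 0.279% of the parent's level.

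Hspa9, the Hsp70 that pulls proteins through the inner membrane and folds them in the matrix, lay between 186 and 365 CPM in KO-NK (median 312) and between 234 and 336 CPM in KO-LK (median 284). CT-HK lay between 367 and 539 CPM (median 518), and the CT-NK libraries held 485, 152, 379, 354 and 394 CPM. CT-HK lay wholly above KO-NK, and CT-NK replicate 2 was the lowest of all 23 libraries. Hspa9 fell by 0.50 in KO against CT (log2 scale, SE 0.15, adjusted p = 0.029). Of the 8 calls this one had the highest adjusted p. It was lost when KO-NK replicate 4, KO-LK replicate 3, 4 or 6, or CT-NK replicate 1 or 5 was left out, with the highest adjusted p of 0.0738 without CT-NK replicate 1. It was also lost without the libraries richest in proximal tubule markers (-0.46, adjusted p = 0.0947) and with no low-count filter (-0.55, adjusted p = 0.0677). With a proximal tubule marker score as a covariate the call was kept.

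**Figure D2:**
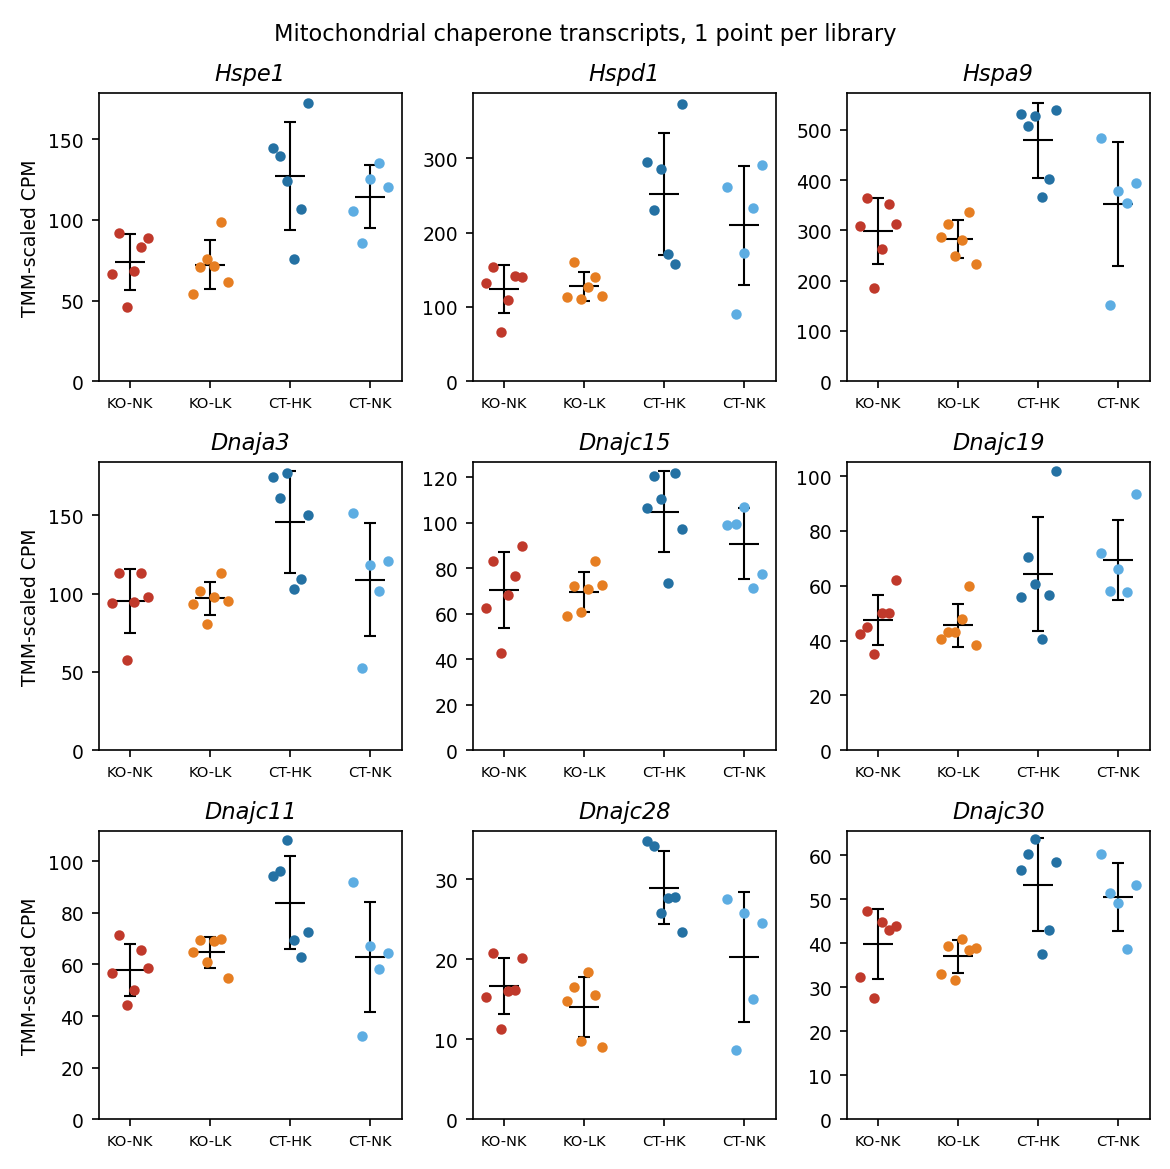
TMM-scaled CPM of the 9 mitochondrial chaperone genes in the 4 groups, 1 point per library, with bars for the mean ± SD. In every panel the mean of KO-NK lies below that of both control groups; Hspd1, Hspa9 and Dnajc28 have KO-NK libraries wholly below the CT-HK libraries.

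Of the mitochondrial DnaJ genes, 4 of 6 were lower in KO against CT. Dnajc15 and Dnajc19 belong to the family of J-proteins at the import motor of the inner membrane. Dnajc15 lay between 42.7 and 89.7 CPM in KO-NK (median 72.3), between 58.8 and 83.0 CPM in KO-LK (median 71.6) and between 73.4 and 122 CPM in CT-HK (median 108), and stood at 99.0, 99.3, 107, 71.1 and 77.3 CPM in CT-NK. It fell by 0.48 in KO against CT (log2 scale, SE 0.12, adjusted p = 0.00761). With an offset for transcript length the adjusted p was 0.0514 (-0.42). Dnajc19 averaged 47.4 ± 9.11 CPM in KO-NK and 45.5 ± 7.77 CPM in KO-LK, against 64.3 ± 20.8 CPM in CT-HK and 69.4 ± 14.6 CPM in CT-NK, and fell by 0.52 (SE 0.13, adjusted p = 0.0101). Without the libraries richest in proximal tubule markers its log2 fold change was -0.37 (adjusted p = 0.0536). Dnajc19 overlaps Fxr1 on the other strand.

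Dnajc28, a mitochondrial J-domain protein, lay between 11.3 and 20.8 CPM in KO-NK (median 16.1) and between 9.04 and 18.3 CPM in KO-LK (median 15.2). CT-HK lay between 23.4 and 34.8 CPM (median 27.7), and the CT-NK libraries held 27.5, 8.6, 25.8, 15.02 and 24.5 CPM. Its CT-HK libraries were all above both knockout groups, and CT-NK was split, with replicate 2 the lowest of all 23 libraries and replicate 4 inside the knockout range. Dnajc28 fell by 0.67 in KO against CT (log2 scale, SE 0.17, adjusted p = 0.0106). Dnajc30, which binds the ATP synthase and takes part in the repair of complex I, averaged 39.8 ± 7.87 CPM in KO-NK and 37.1 ± 3.79 CPM in KO-LK, against 53.3 ± 10.5 CPM in CT-HK and 50.5 ± 7.83 CPM in CT-NK. It fell by 0.43 (SE 0.11, adjusted p = 0.00973), and its locus overlaps Bud23. The remaining mitochondrial genes did not pass: Dnaja3, an Hspa9 partner of the matrix, had -0.39 (SE 0.14, adjusted p = 0.0893), and Dnajc11, a J-protein associated with the complex that shapes the cristae, had -0.25 (SE 0.13, adjusted p = 0.304).

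Of 14 mitochondrial folding and protease genes outside these families, 6 were lower and 1 was higher in KO against CT, where 5.86% of all tested genes were lower and 4.67% higher. Their median log2 fold change was -0.37, against 0.09 over all tested genes. Hscb, the J-protein of iron-sulfur cluster assembly, fell by 0.62 (SE 0.11, adjusted p = 0.000455), and Clpp, the matrix protease, fell by 0.54 (SE 0.10, adjusted p = 0.000843). Grpel1, the nucleotide exchange factor of Hspa9, fell by 0.38 (SE 0.11, adjusted p = 0.0247). Its paralog Grpel2 rose by 0.36 (SE 0.10, adjusted p = 0.0196). Beside these results, transcripts encoded by the mitochondrial genome took 9.40 to 13.4% of counts in KO-NK and 7.93 to 13.3% in KO-LK, against 13.0 to 21.4% in CT-HK and 10.8 to 19.9% in CT-NK, and their part in the result was not tested.

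Single knockout and control groups were next compared, KO-NK with both control diets and KO-LK with CT-NK only. KO-LK was not compared with CT-HK. KO-NK against CT-HK called 7 of 67 genes, 6 lower and 1 higher, where 5.78% of all tested genes passed, 3.32% lower and 2.46% higher. Of the 6, 5 were mitochondrial: Hspd1 (-1.02, SE 0.25, adjusted p = 0.0127), Hspe1 (-0.78, adjusted p = 0.013), Dnajc15 (-0.58, adjusted p = 0.032), Dnajc28 (-0.80, adjusted p = 0.0425) and Hspa9 (-0.69, adjusted p = 0.0476). For Hspd1, Dnajc28, Hspa9 and the cytosolic Dnajb3 the KO-NK libraries lay wholly below the CT-HK libraries, which held for 1.74% of all tested genes. KO-LK against CT-NK, which shares no library with that comparison, called none of 67, with 2.04% of all genes called; 17 genes had an unadjusted p under 0.05 (12.9% of all genes), and DESeq2 called 6 (8.8% of all genes). Its median for the mitochondrion was -0.45 against -0.04 over all genes, and the median in KO-NK against CT-HK was -0.62 against 0.21 over all genes. KO-NK against CT-NK, on the same diet, called none of 67, with 1.7% of all genes called; 15 genes had an unadjusted p under 0.05 (11.7% of all genes), and DESeq2 called 2 (7.31% of all genes). The mitochondrial median there was -0.34 against 0.15 over all genes. The all-gene medians of KO-NK against CT-HK and KO-NK against CT-NK depended on the genes and libraries kept. With a filter of 5 CPM in 5 libraries they were 0.008 and 0.012. Without the 8 libraries above 2500 CPM on olfactory and vomeronasal receptor genes they were -0.018 and -0.010.

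Part of these calls depended on single libraries. The 7 calls in KO-NK against CT-HK became 3 without KO-NK replicate 1 or 4 or CT-HK replicate 2 or 3, and 4 without CT-HK replicate 1. The 5 mitochondrial ones became 2 without KO-NK replicate 1, 3 or 4 or CT-HK replicate 1, 2 or 3, and 3 without KO-NK replicate 5, any KO-LK replicate, CT-HK replicate 5 or CT-NK replicate 5. Hspd1, Hspe1 and Dnajb3 kept their calls in that comparison in all 23 fits that left out 1 library. The 0 calls in KO-LK against CT-NK became 5 without KO-NK replicate 3, 3 without CT-HK replicate 6 and 1 without CT-HK replicate 4 or CT-NK replicate 2, and those in KO-NK against CT-NK became 1 without KO-NK replicate 5, CT-HK replicate 6 or CT-NK replicate 2.

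The scaling of the libraries set the sign of several values. TMM factors lay between 0.934 and 1.35 in KO-NK and between 0.939 and 1.23 in KO-LK, against 0.802 to 1.14 in CT-HK and 0.805 to 1.18 in CT-NK. Without them, on log2(TPM + 1) with limma, the median of all tested genes was 0.22 in KO against CT, and 95.9% of the called genes were higher, against 44.4% on TMM-scaled counts. No mitochondrial gene of 9 was then called, their median was -0.02, and Dnaja3 (0.09), Dnajc11 (0.19) and Dnajc30 (0.02) were positive. On the same scale 30 of the 67 genes were higher, 17 of the cytosol and nucleus, 10 of the ER and 3 others, where 30.3% of all tested genes were higher. After TMM scaling of the TPM, an alternative chosen after seeing the data, 5 of 9 mitochondrial genes were lower. Of all tested genes 8.97% were then called, 4.85% higher. The medians were -0.43 for the mitochondrion, 0.06 for the ER, -0.04 for the cytosol and nucleus and 0.03 for all genes. All 9 mitochondrial genes lay below the median of all genes under each of the 5 scalings plotted.

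**Figure D3:**
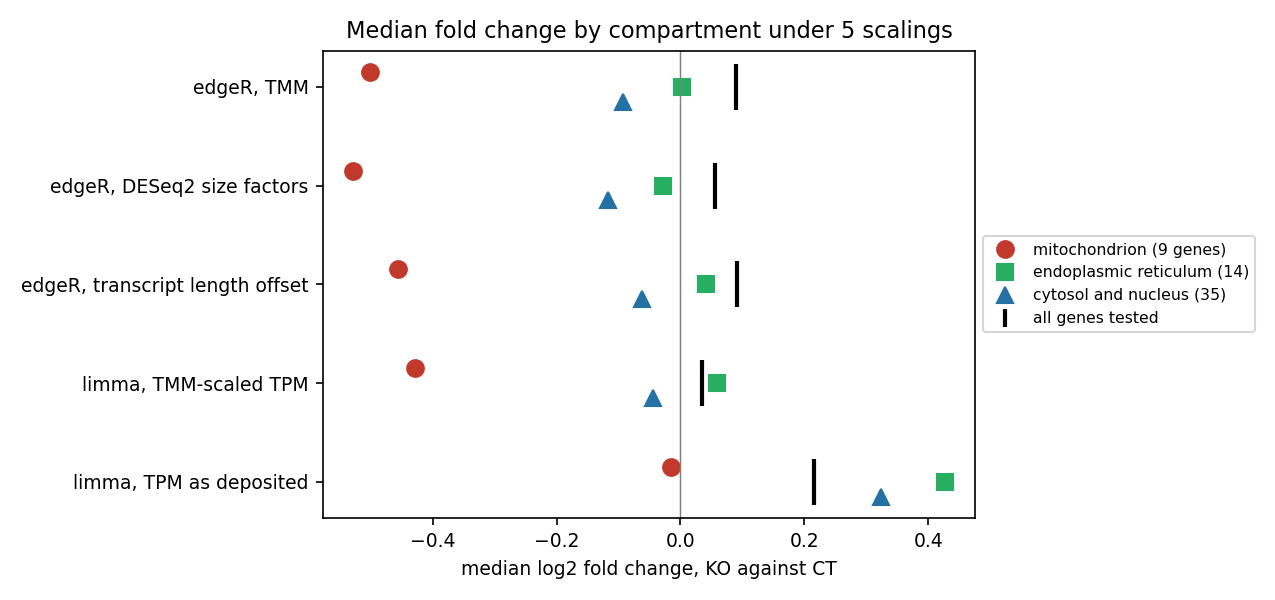
Median log2 fold change in KO against CT of the mitochondrial, ER and cytosolic genes and of all tested genes (black bars) under 5 ways of scaling. The mitochondrial median is the lowest in each row and runs from -0.53 with DESeq2 size factors to -0.02 with TPM as deposited; the ER median is 0.43 with TPM as deposited and between -0.03 and 0.06 in the other rows.

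In the ER the abundant folding chaperones were examined. Hspa5 (BiP), the Hsp70 of the ER lumen, lay between 472 and 765 CPM in KO-NK (median 667) and between 547 and 852 CPM in KO-LK (median 621). In CT-HK it lay between 361 and 647 CPM (median 560.1), and the CT-NK libraries held 502, 175, 416, 499.6 and 467 CPM. KO-LK lay wholly above CT-NK, the only ER gene higher without overlap in that comparison, as were 1.01% of all genes. Hspa5 had a log2 fold change of 0.46 in KO against CT and did not pass (SE 0.16, adjusted p = 0.0624). It passed with DESeq2 (0.43, adjusted p = 0.0384), with the filter of 5 CPM in 5 libraries (0.48, adjusted p = 0.0042), with a length offset (0.52, adjusted p = 0.0318) and on TPM as deposited (0.98, adjusted p = 4.58e-06).

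Hsp90b1, the ER member of the Hsp90 family, averaged 404 ± 89.3 CPM in KO-NK and 492 ± 69.4 CPM in KO-LK, against 370.1 ± 59.0 CPM in CT-HK and 336 ± 97.7 CPM in CT-NK. Its log2 fold change in KO against CT was 0.34 (SE 0.13, adjusted p = 0.117). The J-proteins that share the ER stress response with Hspa5 had small values in KO against CT: Dnajb9 0.14 (SE 0.14, adjusted p = 0.726), Dnajb11 0.06 (SE 0.12, adjusted p = 0.903) and Dnajc3 -0.14 (SE 0.11, adjusted p = 0.614). In summed TPM as deposited, the 14 ER genes reached 567 ± 48.2 in KO-NK and 630.3 ± 61.2 in KO-LK, against 367 ± 45.7 in CT-HK and 356 ± 74.8 in CT-NK (SD). Every knockout library, from 503 to 710.01 TPM, lay above every control library, from 252 to 434 TPM. On log2(TPM + 1), without TMM factors, limma called 30.3% of all tested genes higher in KO against CT. Hspa5 (205 TPM over all libraries) and Hsp90b1 (126 TPM) held the largest parts of the sum. On TMM-scaled counts edgeR called 0 of the 14 ER genes, and 7 had a negative fold change. How often other sums of genes separate on TPM as deposited was not counted. The 9 mitochondrial genes together stood at 536 ± 62.1 TPM in KO-NK, 536 ± 28.8 TPM in KO-LK, 590.03 ± 78.1 TPM in CT-HK and 581 ± 59.0 TPM in CT-NK.

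**Figure D4:**
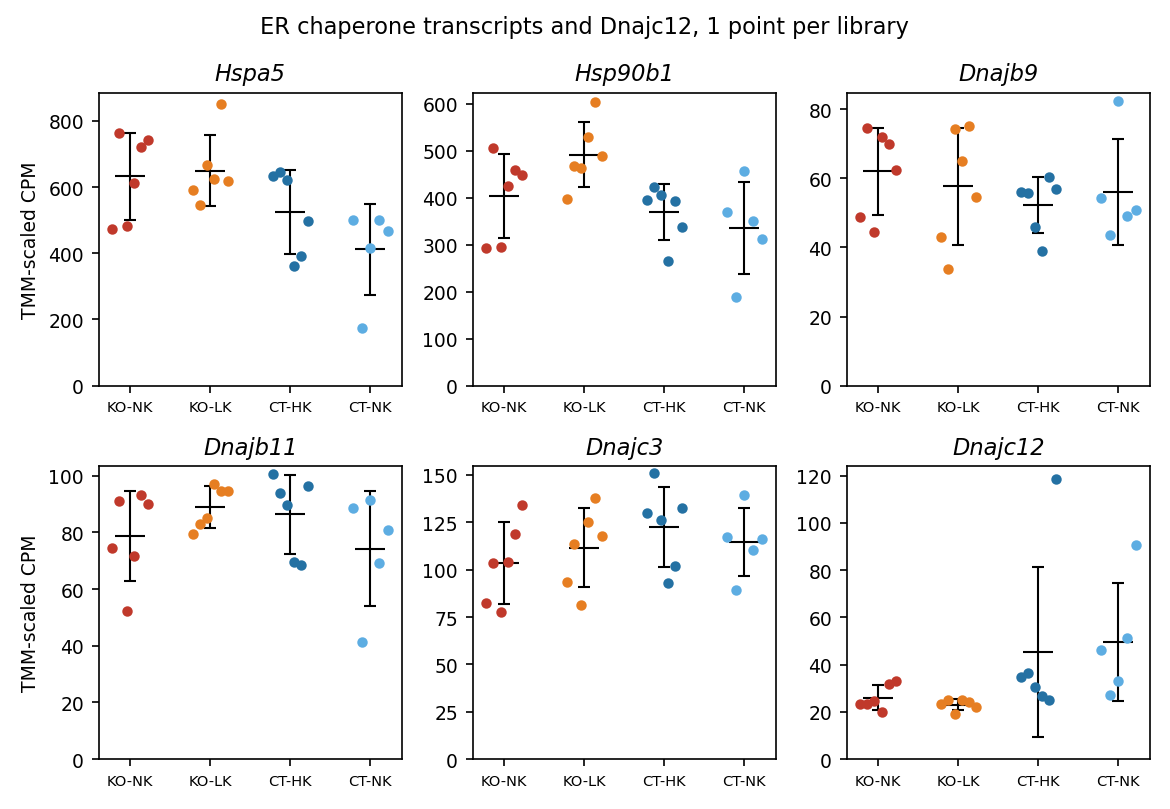
TMM-scaled CPM of 5 ER chaperone genes and of the cytosolic Dnajc12 in the 4 groups, 1 point per library, with bars for the mean ± SD. Hspa5 stands at 547 CPM or more in every KO-LK library and at 502 CPM or less in every CT-NK library; Dnajc12 reaches 119 CPM in 1 CT-HK library.

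Of 22 other ER folding and unfolded protein response genes, 2 were higher and 1 was lower in KO against CT, a share near that of all tested genes (4.67% higher, 5.86% lower). Ddit3, a stress-induced transcription factor, rose by 1.22 (SE 0.19, adjusted p = 0.000113) and Atf4, which acts above it, rose by 0.77 (SE 0.15, adjusted p = 0.00103). Herpud1, which takes part in the removal of misfolded ER proteins, fell by 0.95 (SE 0.13, adjusted p = 2.34e-05). Both transcription factors also answer stresses outside the ER. Immediate early genes summed to 15625 to 24125 CPM in KO-NK and 10557 to 18101 CPM in KO-LK, against 1775 to 6905 CPM in CT-HK and 1573 to 8253 CPM in CT-NK, and their part in these results was not tested.

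Heat-inducible genes were listed separately, with the mitochondrial chaperonin among them. Of 18 such genes, 0 were higher and 2 were lower in KO against CT by edgeR, the 2 being Hspe1 and Hspd1, and 5 had an unadjusted p under 0.05. Over all tested genes 10.5% were called and 21.1% had an unadjusted p under 0.05, shares near those of this list. Their median was -0.18. Hspa1a, the stress-inducible Hsp70, lay between 136 and 244 CPM in KO-NK (median 198), between 103 and 246 CPM in KO-LK (median 167) and between 65.5 and 257 CPM in CT-HK (median 135), and its CT-NK libraries held 232, 121, 391, 527 and 77.1 CPM. Its near-identical copy Hspa1b lay between 148 and 279 CPM in KO-NK (median 224), between 117 and 282 CPM in KO-LK (median 193) and between 96.5 and 313 CPM in CT-HK (median 159), and its CT-NK libraries held 298, 196, 561, 682 and 94.1 CPM. The groups overlapped throughout, and CT-NK held both the highest and, for Hspa1b, the lowest library. The log2 fold changes in KO against CT were -0.19 (SE 0.26, adjusted p = 0.844) for Hspa1a and -0.37 (SE 0.26, adjusted p = 0.511) for Hspa1b, and on TPM as deposited they were 0.43 and 0.24 (adjusted p = 0.265 and 0.515). Reads of these copies may be split between them.

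The highest levels of the heat-inducible genes were spread over several libraries. Of the 14 heat-inducible genes that belong to the families described here, 5 were highest of all 23 libraries in CT-NK replicate 4, 3 in CT-NK replicate 3, 3 in CT-HK replicate 6 and 1 each in CT-HK replicate 1, KO-NK replicate 2 and KO-LK replicate 5. Hspb1, a small heat shock protein that keeps unfolded proteins soluble, stood at 87.1 and 70.8 CPM in CT-NK replicates 3 and 4, and at 25.1, 40.8 and 26.5 CPM in the other CT-NK libraries. Hsph1, the exchange factor of cytosolic Hsp70, stood at 108 and 172 CPM in them, and at 67.3, 33.8 and 70.2 CPM in the others.

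**Figure D5:**
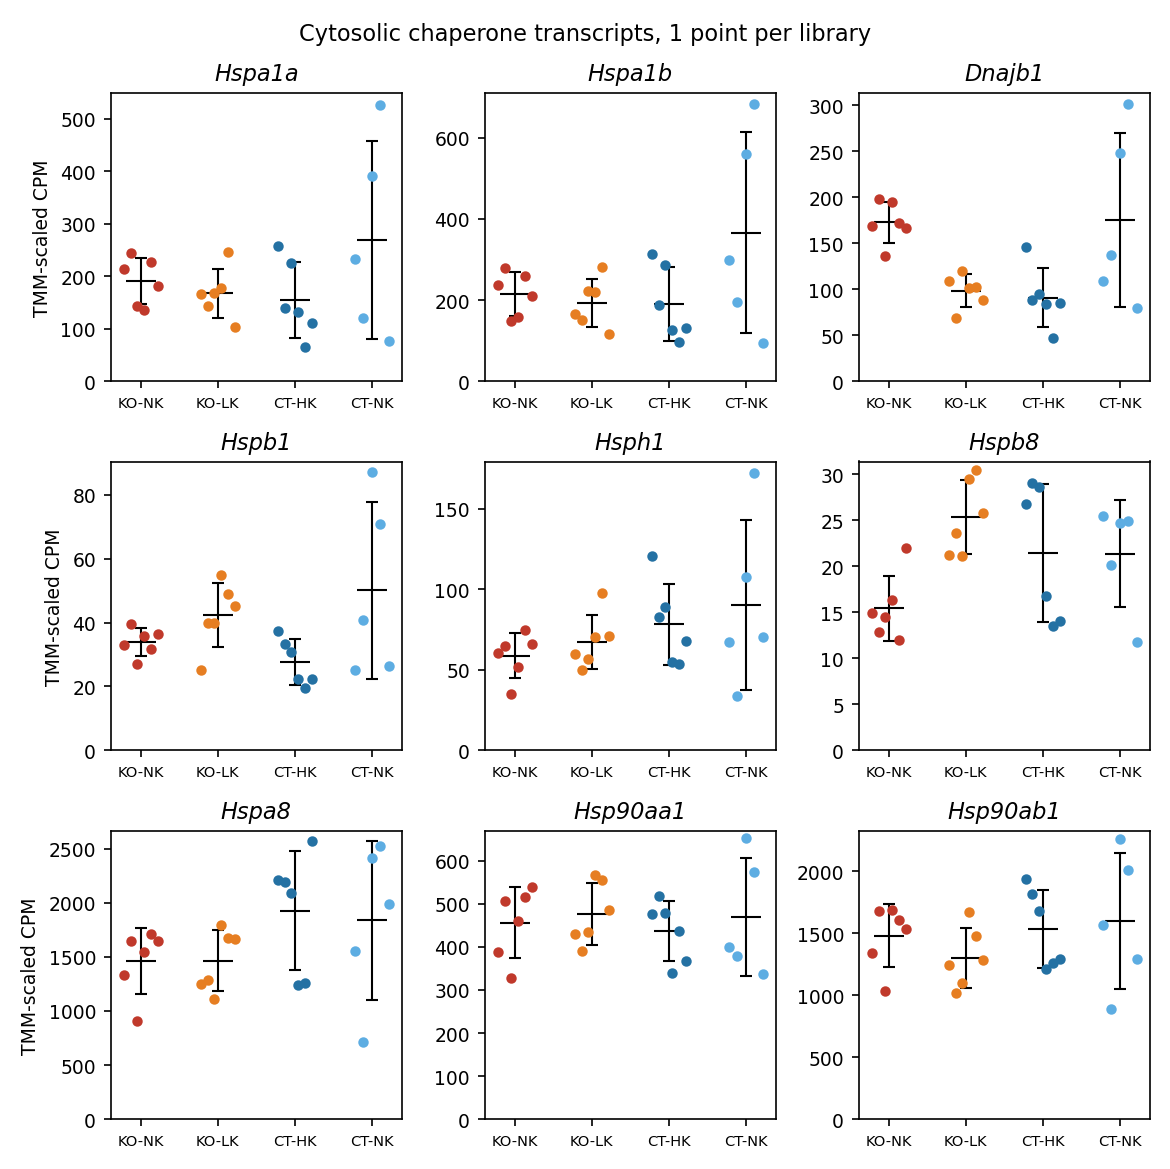
TMM-scaled CPM of 9 cytosolic chaperone genes in the 4 groups, 1 point per library, with bars for the mean ± SD. For Hspa1a, Hspa1b, Dnajb1 and Hspb1 the highest library of all is in CT-NK, and the SD of CT-NK is the widest of the 4 groups; Dnajb1 is higher in every KO-NK library than in every KO-LK library.

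Dnajb1, the main heat-inducible J-protein of cytosolic Hsp70, averaged 173 ± 22.4 CPM in KO-NK and 98.3 ± 18.0 CPM in KO-LK, against 91.0 ± 31.9 CPM in CT-HK and 175 ± 95.0 CPM in CT-NK. Set against CT-HK it rose by 0.93 (log2 scale) in KO-NK, with an SE of 0.26 (edgeR adjusted p = 0.0353). The call was lost without KO-NK replicate 1 or 4 or CT-HK replicate 2, 3, 5 or 6. In KO against CT its value was 0.05 (SE 0.19, adjusted p = 0.959). Dnajb4, a close relative, had a log2 fold change of 0.59 between KO-NK and CT-HK (SE 0.20, edgeR adjusted p = 0.0808), and Dnaja1, a J-protein of cytosolic Hsp70 in another class, had -0.46 in KO against CT (SE 0.16, adjusted p = 0.0615).

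The chaperones that hold steroid receptors did not pass in KO against CT. Hsp90ab1 lay between 1037 and 1689 CPM in KO-NK (median 1573), between 1015 and 1676 CPM in KO-LK (median 1263) and between 1212 and 1935 CPM in CT-HK (median 1484), and its CT-NK libraries held 1567, 886, 2261, 2007 and 1291 CPM. Hsp90aa1, the inducible form, lay between 327 and 538 CPM in KO-NK (median 483), between 391 and 568 CPM in KO-LK (median 461) and between 340.4 and 519 CPM in CT-HK (median 456), and its CT-NK libraries held 399.9, 379, 654, 574 and 338 CPM. Hspa8 lay between 905 and 1716 CPM in KO-NK (median 1595), between 1113 and 1795 CPM in KO-LK (median 1474) and between 1236 and 2573 CPM in CT-HK (median 2140.1), and its CT-NK libraries held 1553, 714, 2409.7, 2525 and 1992 CPM. All 3 overlapped between the groups. Their log2 fold changes in KO against CT were -0.18 (SE 0.15, adjusted p = 0.644) for Hsp90ab1, 0.05 (SE 0.12, adjusted p = 0.936) for Hsp90aa1 and -0.36 (SE 0.18, adjusted p = 0.268) for Hspa8; on TPM as deposited the values were 0.28 for Hsp90ab1, 0.37 for Hsp90aa1, which then passed (adjusted p = 0.0326), and 0.15 for Hspa8.

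Of the 17 genes of the steroid receptor heterocomplex, none was higher and 1 was lower in KO against CT, about the share of all tested genes (5.86% lower). It was Fkbp5, a glucocorticoid-induced immunophilin that binds the complex through Hsp90. Fkbp5 averaged 19.9 CPM in KO-NK and 16.9 CPM in KO-LK, against 75.3 CPM in CT-HK and 43.7 CPM in CT-NK, and fell by 1.65 (log2 scale, SE 0.19, adjusted p = 3.1e-06). Its paralog Fkbp4 had -0.42 (SE 0.16, adjusted p = 0.101). Of 24 heat shock factors and cytosolic cochaperones, which include Fkbp5, 1 was higher (Bag2, 0.37, SE 0.11, adjusted p = 0.0223) and 2 were lower, near the 10.5% of all tested genes called in either direction. Of the 8 subunits of the cytosolic chaperonin TRiC none passed in either direction, and 0 had an unadjusted p under 0.05; their median was -0.08.

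Dnajc12, a J-protein known as the cochaperone of the aromatic amino acid hydroxylases, was the cytosolic gene that passed. It lay between 20.1 and 33.0 CPM in KO-NK (median 24.0), between 19.2 and 25.0 CPM in KO-LK (median 23.7) and between 25.0 and 119 CPM in CT-HK (median 32.6), and its CT-NK libraries held 46.2, 27.1, 33.0, 51.1 and 90.6 CPM. KO-LK lay wholly below CT-NK, as did 1.46% of all genes. Its highest values, 119 and 90.6 CPM, came from the 2 libraries with the highest proximal tubule sums. Dnajc12 fell by 0.95 in KO against CT (log2 scale, SE 0.23, adjusted p = 0.00741). Without those libraries it fell by 0.50 (adjusted p = 0.0107), and with the proximal tubule score as a covariate by 0.63 (adjusted p = 0.000266). All 15 proximal tubule markers had a negative fold change in KO against CT and 4 passed. Without the 8 libraries above 2500 CPM on olfactory and vomeronasal receptor genes the call was lost (-1.04, adjusted p = 0.0656).

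The diets were compared within each genotype last. CT-HK against CT-NK called none of 67 genes, with 0% of all tested genes called by edgeR; 7 had an unadjusted p under 0.05 (3.59% of all genes), and DESeq2 called 0. The smallest p belonged to Dnajb1 (-0.95, SE 0.27), followed by Hspb1 (-0.86, SE 0.27), and both had an adjusted p of 0.9998. KO-LK against KO-NK also called none of 67, with 0% of all genes called; 4 had an unadjusted p under 0.05 (2.83% of all genes), and DESeq2 called 1 (0.106% of all genes). In the knockouts Dnajb1 was lower in KO-LK without overlap (-0.81, SE 0.26, adjusted p = 0.928). Hspb8, a small heat shock protein of chaperone-assisted autophagy, averaged 25.3 ± 4.02 CPM in KO-LK and 15.4 ± 3.57 CPM in KO-NK (0.72, SE 0.22, adjusted p = 0.928). The mitochondrial median was 0.26 in CT-HK against CT-NK and -0.04 in KO-LK against KO-NK, with all-gene medians of -0.01 and -0.13.

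Dnajb3, a J-protein best known from testis, had the smallest p of the 67 genes in KO-LK against KO-NK, at a low level. It lay between 0.932 and 3.2 CPM in KO-LK (median 1.89) and between 0.232 and 0.7 CPM in KO-NK (median 0.654), without overlap, and between 0.834 and 3.43 CPM in CT-HK (median 1.95). Non-overlap in either direction held for 0.275% of all genes in KO-LK against KO-NK. The CT-NK libraries held 2.18, 1.35, 0.8, 0.548 and 1.09 CPM. Against CT-HK, Dnajb3 fell by 1.78 in KO-NK on the log2 scale (SE 0.42, edgeR adjusted p = 0.0112), and its value in KO-LK against KO-NK was 1.71 (SE 0.42, adjusted p = 0.607). Dnajb3 lies within the Ugt1a locus on the opposite strand, where Ugt1a6a averaged 82.2 CPM over all libraries against 1.41 CPM for Dnajb3. This overlap was measured over whole gene spans. Whether their exons overlap, and so whether reads could be shared without strand information, was not tested.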

How the data were processed

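RNA from dissected connecting tubule and cortical collecting duct was prepared with SMART-Seq HT and Nextera XT, per the labels' protocols. The authors quantified reads with Salmon (version listed as 0.14.10) on GRCm38.p6, per the submitters' processing notes; strandedness and annotation release are not given in the sources used here. They deposited expected counts per gene (35.9% of values are not whole) and TPM, which scale by transcript length. All 54393 gene IDs matched GENCODE vM21 symbols.

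The main test was run on rounded expected counts in edgeR 4.0.16 under R 4.3.3. It used TMM scaling, filterByExpr (25829 genes), 1 mean per group over all 23 libraries, quasi-likelihood F tests, Benjamini-Hochberg adjustment over all tested genes and a threshold of 0.05. Adjusted p-values come from edgeR except where a sentence names other software, and the script was tested on simulated data. Alternatives used DESeq2 1.42.0, its size factors, 2 other low-count filters, limma 3.58.1 on log2(deposited TPM + 1 or 0.1), a length offset, a proximal tubule covariate, a replicate block and libraries left out. TMM-scaled TPM was added after seeing the data. Members and gene lists were chosen with earlier results of these data known. The text names members called in any comparison, the 2 of smallest p in each direction per comparison, a fixed set of well-known members, and up to 4 genes per list. Replicate numbers were not treated as pairs.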

Additional observations from a re-analysis of the deposited data

Results flagged for a closer look

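In 112 sets of libraries (28 named genes in each of the 4 groups), 4 had a library far from the others of its group, measured by its gap relative to the group's range; chance alone flags about 1 in 20. Hspa5 stood at 175 CPM in CT-NK replicate 2, against 416 to 502 CPM in the other CT-NK libraries. Dnaja3 stood at 57.7 CPM in KO-NK replicate 3, against 94.1 to 113 CPM in the other KO-NK libraries. Dnajb9 stood at 82.4 CPM in CT-NK replicate 3, against 43.5 to 54.3 CPM in the others of that group. Dnajc12 stood at 119 CPM in CT-HK replicate 6, the library with the highest proximal tubule sum, against 25.0 to 36.3 CPM in the other CT-HK libraries.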

How the results depend on the processing

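With the filter of 5 CPM in 5 libraries, which kept 60 of the genes, 20 were called in KO against CT (8 in the reported fit), 17 in KO-NK against CT-HK (7 reported; 8 mitochondrial lower, 5 reported), 14 in KO-LK against CT-NK and 9 in KO-NK against CT-NK (0 reported in each), where 38.2%, 28.5%, 19.3% and 19.8% of all genes were called. DESeq2 called 16, 15 (8 mitochondrial), 6 and 2 in the same comparisons, and 1 in KO-LK against KO-NK, where it called 18.3%, 13.9%, 8.8%, 7.31% and 0.106% of all genes. On log2(TPM + 1) limma called 30, 18, 18 and 9 (31.6%, 21.3%, 16.9% and 11.8% of all genes). On log2(TPM + 0.1) it called 29, 18, 18 and 9 (32%, 21.8%, 16.8% and 11.9%). Both gave 0 mitochondrial genes lower in KO against CT and in KO-NK against CT-HK. Dnajc30 in KO against CT turned to 0.0185 and 0.0194. TMM-scaled TPM gave 4 in KO-NK against CT-HK (1 mitochondrial), no filter 3 (2 mitochondrial) and the length offset 2 mitochondrial. Of all genes, 4.72%, 1.54% and 4.74% were called in these fits, in the same order. The proximal tubule covariate gave 1 in KO-NK against CT-NK (2.06% of all genes). Leaving out the 2 libraries richest in those markers gave 2 in KO-LK against CT-NK (1.56% of all genes). The cause was not tested.

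Same-numbered libraries did not deviate together (33 pairs, mean r -0.09, 9 over 0.1; 2 of 23 libraries correlated best with their own number). The replicate block gave 7 calls in KO against CT (8.45% of all genes) and 1 in KO-LK against CT-NK (1.73%). It gave 3 mitochondrial calls in KO-NK against CT-HK, where 4.52% of all genes were called.

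Leaving out 1 library gave 7 to 12 calls in KO against CT (6 to 8 mitochondrial), 3 to 10 in KO-NK against CT-HK (2 to 7 mitochondrial), 0 to 5 in KO-LK against CT-NK, 0 to 1 in KO-NK against CT-NK, and 0 in both diet comparisons. Over 15 called gene and comparison pairs, 422 of 524 alternative values kept direction and call, 100 kept the direction only and 2 reversed. Counts of 16158408 to 34154475 per library limit genes near 1 CPM, such as Dnajb3.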
